A study of Mus musculus with 6 samples.

Results

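The genes described here make up the glutathione system and the superoxide dismutases, measured in 3T3-L1 adipocytes with and without forced expression of uncoupling protein 1 (UCP1). Members were found by gene symbol on 1-colour CodeLink mouse whole genome arrays: glutathione transferases, microsomal transferases, glutathione peroxidases, superoxide dismutases, the enzymes that make and recycle glutathione, 2 glutaredoxins and Nqo1. The rule found 40 probes for 38 genes, of 36227 probes and 18015 genes with 1 symbol on the arrays, and each gene was read from its probe with the highest mean log2 level. Another 5 probes matched the rule with several symbols at once and were not used. The 3T3-L1 line is a mouse preadipocyte line that fills with lipid under an adipogenic mixture. The titles of the 3 UCP1 arrays end in different digits, which could be read as array numbers or as different uncoupling proteins, but their source text names uncoupling protein 1 for all 3. Biotin-labelled total RNA came from cells 10 days after differentiation, on 3 arrays of cells with the Tet-off plasmid alone (control) and 3 arrays of cells expressing UCP1. The Tet-off plasmid carries a tetracycline-controlled activator. Whether the 3 RNA samples behind each group were grown as separate cultures, or from 1 clone, is not stated, and the p-values then cover array-to-array spread alone, which may be technical.

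Glutathione is a small cysteine-containing peptide that keeps the cell interior reduced. It is made in a step by glutamate-cysteine ligase and a step by glutathione synthetase, spent by peroxidases that remove hydrogen peroxide and lipid peroxides, joined to reactive compounds by transferases, and regenerated by glutathione reductase with NADPH. Superoxide dismutases supply the peroxide, by converting the superoxide that leaks from the respiratory chain. UCP1 lets protons return to the mitochondrial matrix without ATP synthesis, and uncoupling is known to lower superoxide output, which is why this system is of interest beside it.

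The arrays and labels were checked on a few genes. The Ucp1 probe read 0.222, 0.232 and 0.278 on the control arrays and 2.34, 2.02 and 1.54 on the UCP1 arrays, as intensity relative to an array median near 1. The log2 difference was 3.00 ± 0.234 (SE; limma, adjusted p = 0.00013). The exact two-sided permutation test gave 0.1, the smallest p that 3 against 3 arrays allow. Adipocyte markers were bright: 10 of 11 measured markers lay at or above the median probe, among them Fabp4, the fatty acid binding protein, and Adipoq, the adiponectin gene. Lipe, the hormone-sensitive lipase, was the exception, at the 8.18th percentile of level. Macrophage markers lay low, with 2 of 8 at or above the median probe, as did endothelial and skeletal muscle markers, with 0 of 7 and 0 of 8. The 99th percentile of intensity was 255 to 279 on control arrays and 185 to 225 on UCP1 arrays, while array medians were nearly equal, so bright probes read lower as a class on the UCP1 arrays. Above the 90th percentile of level the median log2 difference over 2173 genes was -0.17, and 81.2% of them were below 0.

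Of the 38 genes, 2 rose and 1 fell at an adjusted p under 0.05 (limma, Benjamini-Hochberg over all 36116 tested probes). The genes that rose were Gpx8, a peroxidase of the endoplasmic reticulum, by 1.55-fold, and Gstm7, a mu class transferase, by 1.52-fold. The gene that fell was Sod2, the manganese superoxide dismutase of the mitochondrial matrix, by 1.47-fold. Over all 18014 genes tested the shares were 1.13% higher and 2.92% lower, 4.05% in either direction, and 3 calls among 38 genes is too small a count to set apart from that share. The median difference over the 38 was -0.18, beside -0.08 over all tested genes, and 60.5% of members lay below 0, beside 60.1%. For the 31 members at or above the median probe level the median was -0.20 and 64.5% lay below 0. Over the 10775 tested genes at that level these were -0.11 and 67.0%.

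**Figure D1:**
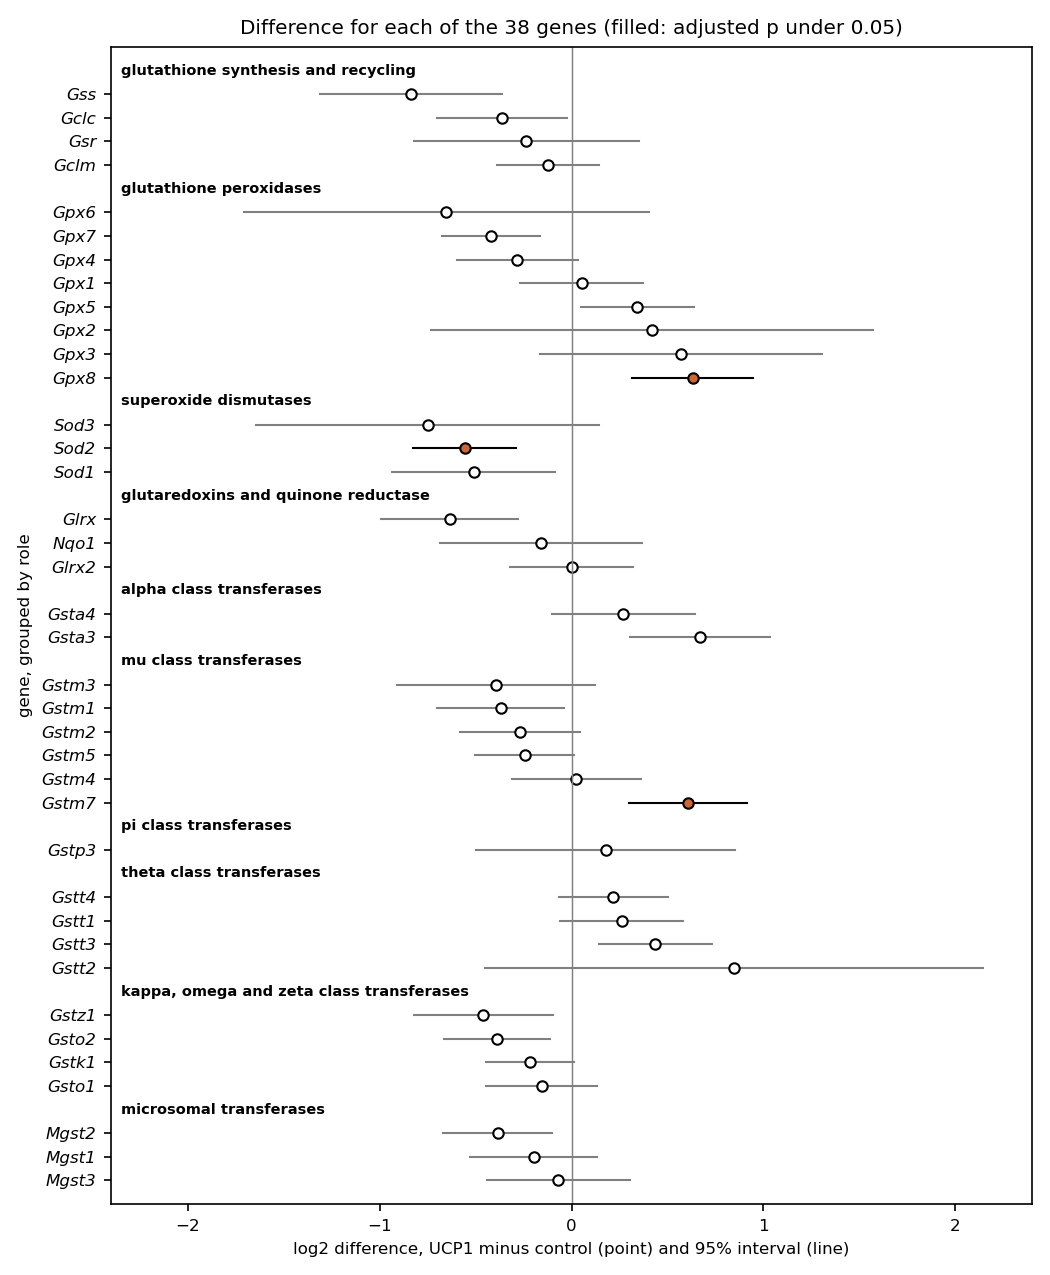
Log2 difference (UCP1 minus control, horizontal axis) for each of the 38 genes, grouped by role, with 95% intervals from limma as lines. Filled points mark the genes with an adjusted p under 0.05: Gpx8 at 0.63, Gstm7 at 0.61 and Sod2 at -0.56.

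The stretches upstream of the 3 genes that passed are shown so that their start regions can be read beside the differences. Each is the 250 bases before the start site in RefSeq (GRCm38.p6), 5′ to 3′ along the gene's strand, at chr17:13007589-13007838 on the plus strand for Sod2, chr13:113046389-113046638 on the minus strand for Gpx8 and chr3:107931818-107932067 on the minus strand for the upstream of 2 start sites of Gstm7.
Sod2: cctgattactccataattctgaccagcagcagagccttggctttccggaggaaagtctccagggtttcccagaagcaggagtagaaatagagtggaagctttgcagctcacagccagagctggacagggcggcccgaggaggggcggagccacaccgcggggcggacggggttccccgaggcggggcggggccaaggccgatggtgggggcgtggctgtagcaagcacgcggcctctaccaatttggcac
Gpx8: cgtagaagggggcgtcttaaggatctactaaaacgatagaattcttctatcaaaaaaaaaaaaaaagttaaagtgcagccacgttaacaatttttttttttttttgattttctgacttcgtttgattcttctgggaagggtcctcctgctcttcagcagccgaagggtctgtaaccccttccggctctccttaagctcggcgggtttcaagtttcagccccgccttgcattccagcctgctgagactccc
Gstm7: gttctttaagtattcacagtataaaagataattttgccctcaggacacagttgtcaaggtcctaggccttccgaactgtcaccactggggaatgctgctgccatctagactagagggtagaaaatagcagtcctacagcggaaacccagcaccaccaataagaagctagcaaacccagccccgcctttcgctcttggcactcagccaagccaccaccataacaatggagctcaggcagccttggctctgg
The antioxidant response element, the site through which the factor NRF2 drives many glutathione genes, was searched in these windows by its core TGACNNNGC on both strands. It was the only motif searched. Promoter entries were found for 33 of the 38 genes. Of the 33, 6 (18.2%) held the core in a window of 250 bases, beside 11.5% of all 27025 genes with an entry. A gene counted if any of its windows held the core, so genes with more start sites had more windows to match. The 33 genes had 47 windows, of which 6 held the core, beside 10.2% of all 32851 windows. None of the 3 stretches above holds it, which is why they carry no capitals. In Gstm7 a match lies 129 bases before the downstream start site, after the upstream one. The other matches are shown with the 16 bases on either side and with the core in capitals (GCNNNGTCA where it reads on the opposite strand), at chr1:21240448-21240488 for Gsta3, chr3:122245407-122245447 for Gclm, chr3:107895796-107895836 for Gstm5, chr6:138140455-138140495 for Mgst1 and chr16:90220690-90220730 for Sod1, all on the plus strand.
Gsta3: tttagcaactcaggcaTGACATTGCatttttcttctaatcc
Gclm: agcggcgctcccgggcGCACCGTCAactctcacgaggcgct
Gstm5: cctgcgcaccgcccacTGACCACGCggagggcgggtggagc
Mgst1: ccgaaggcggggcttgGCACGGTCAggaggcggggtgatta
Sod1: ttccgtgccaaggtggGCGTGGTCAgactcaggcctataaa
The 6 genes with a match went in both directions, from -0.51 for Sod1 to 0.67 for Gsta3 on the log2 scale. A match is a description of letters and does not show binding.

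The superoxide dismutases all read lower on average, and 1 of 3 fell. Sod2 read 32.0, 28.5 and 25.4 on the control arrays and 20.6, 19.8 and 17.9 on the UCP1 arrays. Every UCP1 array lay below every control array, and the difference was -0.56 ± 0.124 (SE; limma, adjusted p = 0.0369). Sod1, the copper and zinc enzyme of the cytosol, read 536, 492 and 473 against 378, 356 and 320, again without overlap. Its difference of -0.51 ± 0.195 (SE) did not pass (limma, adjusted p = 0.199). The other Sod1 probe, at the 9.57th percentile of level, had a log2 difference of 0.13 with a 95% interval of -1.20 to 1.46. The first Sod1 probe is among the brightest, and its difference shrank to -0.08 after quantile normalization and -0.22 after cyclic loess. Sod3, the secreted enzyme, read 5.26, 2.76 and 2.38 against 1.06, 4.09 and 1.67, so its groups overlapped and its difference of -0.75 ± 0.409 (SE) did not pass. The Sod3 value rests on single arrays: without UCP1 array 2 the difference was -1.29 (limma, adjusted p = 0.0223). Sod3 did not pass without control array 1, 2 or 3 (limma, adjusted p = 0.74, 0.409 and 0.322) or UCP1 array 1 or 3 (0.706 and 0.678). Ccs, the chaperone that loads copper onto SOD1, was measured at -0.30 ± 0.108 (SE; limma, adjusted p = 0.167).

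The Sod2 call depended on the scaling and on single arrays. After quantile normalization Sod2 was at -0.41 (limma, adjusted p = 0.0604) and after cyclic loess at -0.42 (adjusted p = 0.0546). It did not pass without control array 1, 2 or 3 (adjusted p = 0.164, 0.118 and 0.0514) or without UCP1 array 3 (0.179), and its difference ranged from -0.64 to -0.47 over the 6 fits that each left out 1 array.

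**Figure D2:**
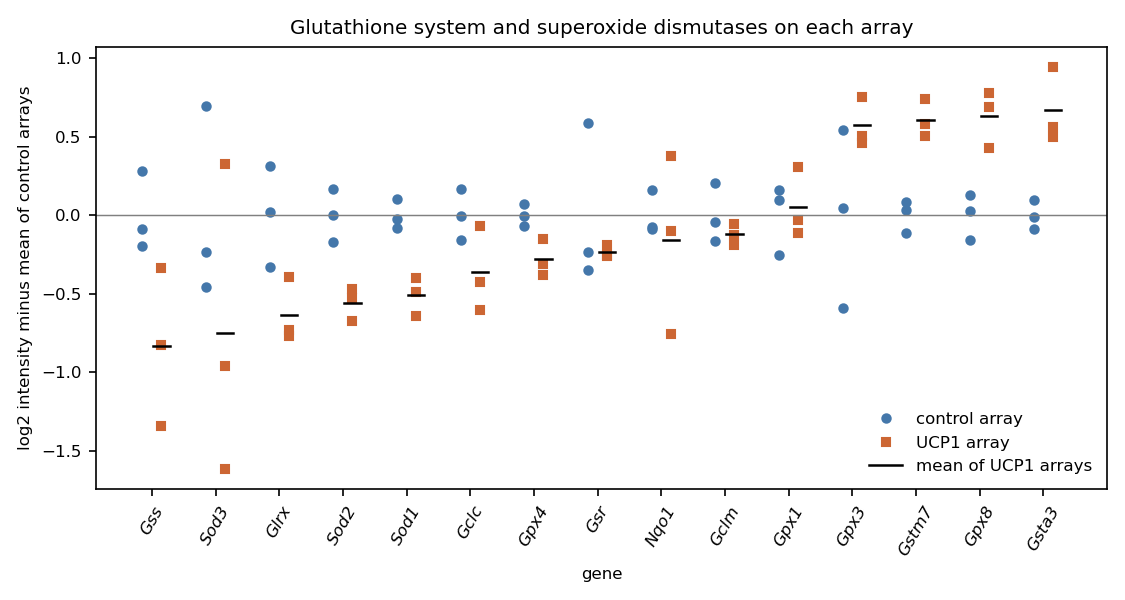
Log2 intensity on each array minus the mean of the control arrays (vertical axis) for 15 of the genes, with circles for control arrays, squares for UCP1 arrays and bars for the UCP1 mean. For Sod2, Sod1, Gss, Glrx and Gpx4 all UCP1 squares lie below the control circles, for Gstm7, Gpx8 and Gsta3 all lie above, and for the other 7 genes the groups overlap.

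Among the 8 glutathione peroxidases, 1 rose and 0 fell (limma), and at an unadjusted p under 0.05 there were 2 higher and 1 lower. Gpx8 read 59.9, 55.8 and 49.2 on control arrays and 93.9, 88.4 and 73.6 on UCP1 arrays. The groups did not overlap, and the difference was 0.63 ± 0.144 (SE; limma, adjusted p = 0.0409). It passed under the other scalings too, at 0.86 after quantile normalization and 0.83 after cyclic loess (adjusted p = 0.00247 and 0.00248). Without control array 1, 2 or 3 its adjusted p was 0.106, 0.13 and 0.159, and without UCP1 array 2 or 3 it was 0.0536 and 0.0668, with differences of 0.55 to 0.73 over all 6 such fits. Gpx7, the related peroxidase of the endoplasmic reticulum, lay on the other side of 0. It was measured at -0.42 ± 0.117 (SE), with every UCP1 array below every control array (limma, adjusted p = 0.0798). The difference between Gpx7 and Gpx8 was not tested.

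Gpx1 and Gpx4, the peroxidases with the broadest roles, showed smaller differences than Gpx8. Gpx1, which reduces hydrogen peroxide in the cytosol and mitochondria, read 15.3, 14.6 and 11.5 on control arrays and 13.4, 17.0 and 12.6 on UCP1 arrays. The groups overlapped, with a difference of 0.05 and a 95% interval of -0.27 to 0.37. Gpx4, which reduces lipid peroxides within membranes and guards against ferroptosis, read 140, 133 and 127 against 107, 120 and 102. Its groups did not overlap, but the difference of -0.28 ± 0.144 (SE) did not pass (limma, adjusted p = 0.356) and was 0.00 after quantile normalization. Gpx3, the secreted plasma peroxidase, was dim at the 34.5th percentile of level and read 0.357, 0.229 and 0.504 against 0.583, 0.490 and 0.475, with a difference of 0.57 ± 0.337 (SE). Gpx5, known from the epididymis, was at 0.34 without passing (limma, adjusted p = 0.213). Gpx2 and Gpx6, at the 23.2nd and 21.1st percentiles, were at 0.42 and -0.65 with 95% intervals of -0.73 to 1.57 and -1.71 to 0.40, which are too wide to give a direction.

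In glutathione synthesis and recycling, 0 of 4 genes passed (limma), 2 were lower at an unadjusted p under 0.05, and all 4 lay below 0. Gss, glutathione synthetase, read 9.06, 6.99 and 6.51 on control arrays and 2.93, 5.89 and 4.20 on UCP1 arrays. No UCP1 array reached the lowest control, and the difference of -0.84 ± 0.217 (SE) was the largest below 0 among the 38 genes, short of the threshold at an adjusted p of 0.0642 (limma). After quantile normalization and cyclic loess the adjusted p was 0.152 and 0.154, and with robust eBayes 0.109. Of the fits that left out 1 array, it passed in the fit without UCP1 array 2, the highest of its group (-1.09, adjusted p = 0.00471), and in none of the other 5, where the difference was as small as -0.58 (without UCP1 array 1) and the adjusted p as high as 0.250 (without UCP1 array 3). It passed with an offset added before log2 (adjusted p = 0.0446), over the brighter probes alone (0.0169) and with array weights (0.0325). Gclc, the catalytic subunit of glutamate-cysteine ligase, read 4.53, 3.62 and 4.02 against 2.66, 3.86 and 3.01. Its groups overlapped and the difference of -0.36 ± 0.155 (SE) did not pass (limma, adjusted p = 0.254). Gclm, the modifier subunit of the same enzyme, read 17.3, 13.4 and 14.6 against 14.4, 13.2 and 13.7, with a difference of -0.12 and a 95% interval of -0.39 to 0.14. Gsr, glutathione reductase, read 1.08, 0.564 and 0.610 against 0.604, 0.629 and 0.601. Control array 1 stood above the other 5, and the difference of -0.23 was 0.058 without it.

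The glutaredoxins use glutathione to reduce protein disulfides, and they differed from each other in value. Glrx, the cytosolic form, read 23.6, 19.2 and 15.1 on control arrays and 11.1, 14.4 and 11.4 on UCP1 arrays, without overlap. Its difference of -0.63 ± 0.164 (SE) lay just outside the threshold (limma, adjusted p = 0.0631). After quantile normalization and cyclic loess the adjusted p was 0.172 and 0.166. It passed without control array 3 (0.0352) or UCP1 array 2 (0.0198), but not without control array 1 or 2 (0.221 and 0.151) or UCP1 array 1 or 3 (0.102 and 0.268). It also passed with the offset (0.0461), robust eBayes (0.0441), array weights (0.0379) and the brighter probes alone (0.0219). Glrx2, a glutaredoxin with a mitochondrial form, was at 0.00 with a 95% interval of -0.32 to 0.32. Nqo1, the quinone reductase often read as an NRF2 target, read 2.002, 1.70 and 1.69 against 1.06, 2.33 and 1.67. The groups overlapped, with a difference of -0.16 ± 0.240 (SE), and it was 0.14 without UCP1 array 1.

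The 20 transferases included 1 gene that rose and 0 that fell (limma), against 3 higher and 4 lower at an unadjusted p under 0.05. In the mu class, Gstm7 read 1.60, 1.66 and 1.45 on control arrays and 2.34, 2.61 and 2.22 on UCP1 arrays. The groups were well apart and the difference was 0.61 ± 0.141 (SE; limma, adjusted p = 0.044), with 0.64 after quantile normalization (adjusted p = 0.0342). It did not pass with the replicate number as a block (adjusted p = 0.0639), without control array 1, 2 or 3 (0.119, 0.0987 and 0.128) or without UCP1 array 2 or 3 (0.0768 and 0.152). Its 5 measured class members lie in the same run of genes in GRCm38.p6, in the order Gstm5, Gstm7, Gstm6, Gstm3, Gstm2, Gstm1 and Gstm4, of which Gstm6 was not analysed here. None of those 5 passed. Gstm3 was at -0.39, Gstm1 at -0.37, Gstm2 at -0.27, Gstm5 at -0.24 and Gstm4 at 0.02. The difference between Gstm7 and its neighbours was not tested, and mu class transcripts are alike enough that a probe need not tell them apart.

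All 4 theta class genes lay above 0 and none passed in the deposited scaling (limma, with 1 higher at an unadjusted p under 0.05). They also sit side by side, in the order Gstt3, Gstt1, Gstt4 and Gstt2. Gstt3 read 31.6, 29.7 and 29.9 on control arrays and 49.0, 39.5 and 36.0 on UCP1 arrays, with every UCP1 array higher. Its difference of 0.44 ± 0.134 (SE) did not pass (limma, adjusted p = 0.107), but it passed at 0.60 after quantile normalization and after cyclic loess (adjusted p = 0.00512 and 0.00545). Gstt1 was at 0.26, Gstt4 at 0.22 and the dim Gstt2 at 0.85 with a 95% interval of -0.45 to 2.15. Transferases of the theta class act on small halogenated compounds and organic hydroperoxides.

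In the alpha class, Gsta3 read 1.11, 1.25 and 1.16 on control arrays and 1.73, 2.26 and 1.66 on UCP1 arrays. The groups did not overlap, and the difference of 0.67 ± 0.167 (SE) missed the threshold (limma, adjusted p = 0.0572). Gsta4, which conjugates the lipid peroxidation product hydroxynonenal, was at 0.27 (adjusted p = 0.477). After quantile normalization it was at 0.51 and passed (adjusted p = 0.0475), and without UCP1 array 1, which read 112 against 66.9 to 76.4 on control arrays, its difference in the deposited scaling was 0.08. Gstp3, the pi class member, was at 0.18 with a 95% interval of -0.50 to 0.85.

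The kappa, omega and zeta classes and the microsomal transferases all lay below 0 in the deposited scaling, and none of these 7 genes passed (limma, with 3 lower at an unadjusted p under 0.05). Gstz1, an enzyme of tyrosine breakdown, was at -0.46, and Gsto2, which reduces dehydroascorbate, was at -0.39. Mgst2, a membrane-bound transferase and peroxidase, was at -0.39, and Gstk1, found in mitochondria and peroxisomes, at -0.22. For each of these 4 the groups did not overlap. Mgst1 was at -0.20, Gsto1 at -0.15 and Mgst3 at -0.07, and these 3 lay above 0 after quantile normalization, at 0.07, 0.04 and 0.23. The other Mgst3 probe, at the 20.8th percentile of level, was at 0.82 with a 95% interval of -0.29 to 1.93.

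Counting the genes whose arrays did not overlap between groups, 6 of the 38 lay wholly above the controls and 12 wholly below. Over all tested genes these shares were 8.09% and 17.1%. All of these members were among the 31 at or above the median probe level. At that level 965 of 10775 tested genes lay wholly above the controls and 2556 wholly below. The lean of the members to lower values did not hold under the other scalings. After quantile normalization 9 members lay wholly above and 5 wholly below, beside 2587 and 2267 of all 18014 tested genes. After cyclic loess these were 8 and 7 members, beside 2437 and 2411 of all tested genes. At an unadjusted p under 0.05 there were 5 members higher and 10 lower, beside 5.73% and 15.1% of all tested genes. After quantile normalization 4 members passed higher (Gpx8, Gsta4, Gstm7 and Gstt3) and 0 lower (limma), beside 2.27% and 1.72% of all genes, 3.99% in all. At an unadjusted p under 0.05 there were 10 higher and 7 lower, beside 1949 and 1963 of all 18014 tested genes. After cyclic loess 3 passed higher (Gpx8, Gstm7 and Gstt3) and 0 lower (limma), beside 2.09% and 1.82%, 3.91% in all. The unadjusted counts were then 8 higher and 6 lower, beside 1788 and 2057 of all tested genes. The median over the members was 0.01 after quantile normalization and -0.03 after cyclic loess. As the plot of the 3 scalings shows, bright genes such as Sod1, Mgst3, Gstm1 and Gpx4 shifted upward, whereas dim ones such as Gpx6 and Gstt2 kept nearly the same value.

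**Figure D3:**
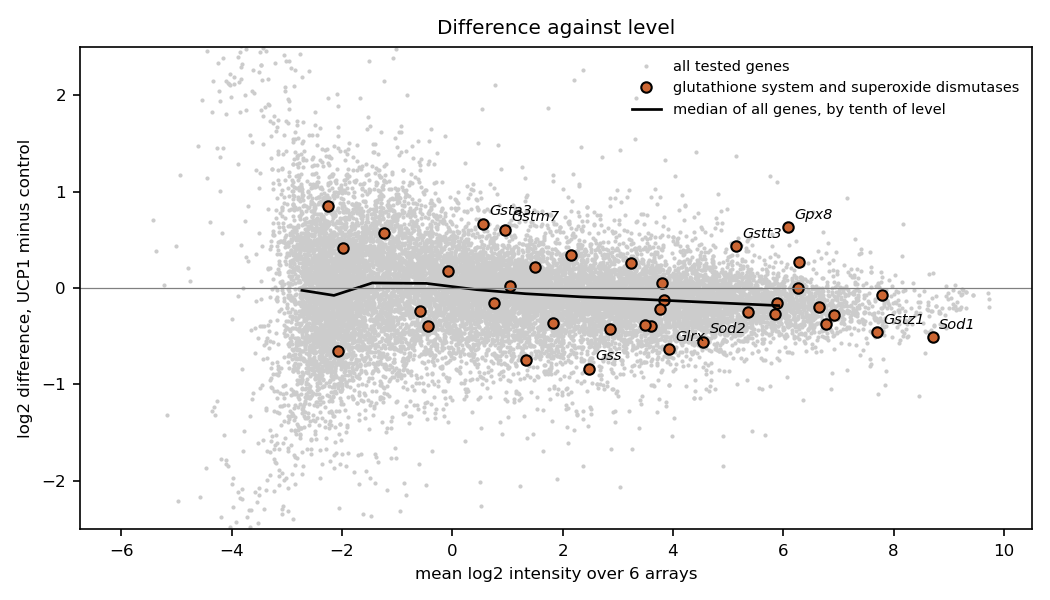
Log2 difference (vertical axis) against mean log2 intensity over the 6 arrays (horizontal axis) for all 18014 tested genes in grey and the 38 genes filled, with a line for the median of all genes by band of level. The line falls below 0 at high levels, Sod2, Glrx and Gss lie below it and Gstt3, Gsta3 and Gstm7 above it, and 174 genes beyond 2.5 in size are not drawn.

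**Figure D4:**
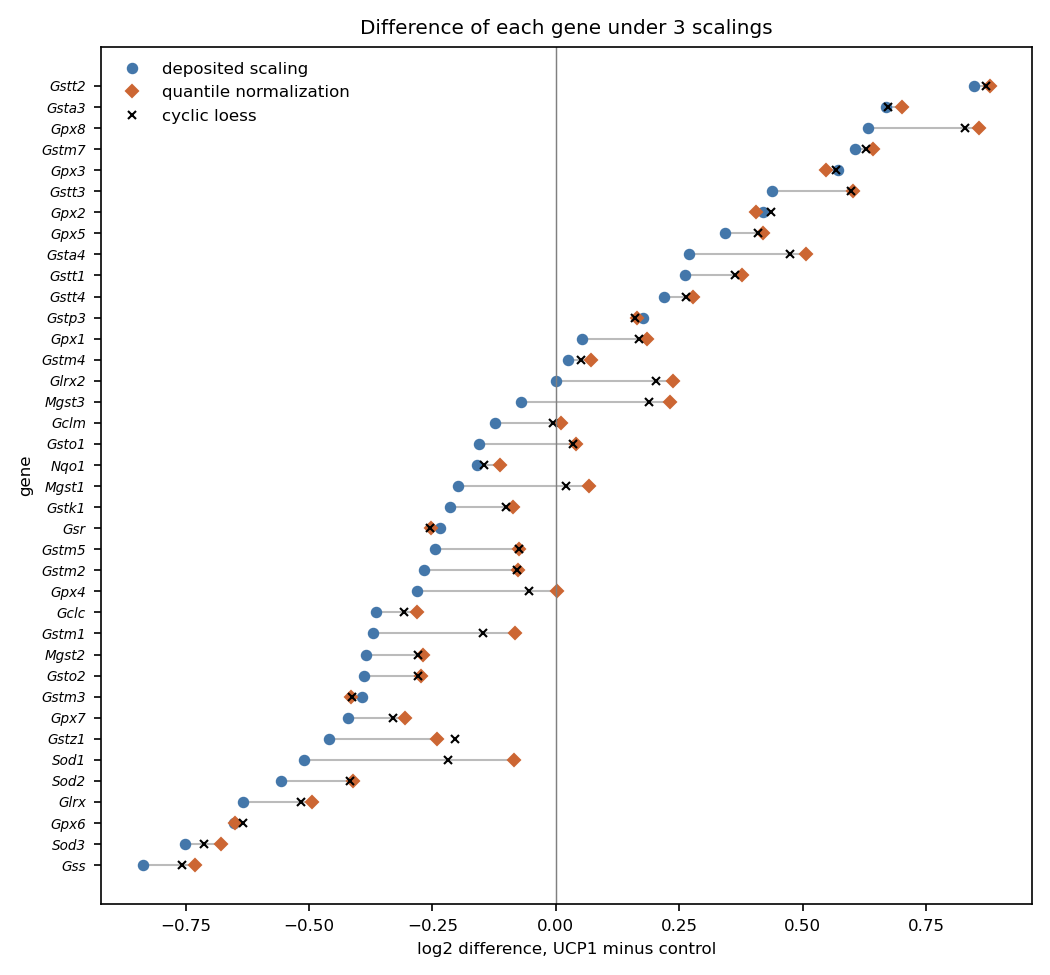
Log2 difference of each of the 38 genes (rows) in the deposited scaling (circles), after quantile normalization (diamonds) and after cyclic loess (crosses). Sod1 goes from -0.51 to -0.08 with quantile normalization, while Sod2 goes from -0.56 to -0.41 and Gpx8 from 0.63 to 0.86.

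The genes around the system were mostly lower. Beyond the 38 genes, 6 lists held 104 further genes, some of them in more than 1 list. The lists covered supply, other proteins linked to glutathione, other peroxide handling, the NRF2 pathway, NADPH and selenoprotein synthesis. Of the 104 genes, 15 fell and 0 rose (limma), beside 2.92% lower and 1.13% higher over all genes. At an unadjusted p under 0.05 there were 36 lower and 2 higher, beside 15.1% and 5.73% of all genes. The median over the 104 was -0.25, beside -0.08 over all genes. Since bright probes read lower as a class, brighter genes are the closer comparison. Over the brighter list genes alone the median was -0.25 and 80.7% lay below 0. Over the 10775 tested genes at or above the median probe level these were -0.11 and 67.0%. Of those 10775 genes, 503 fell and 175 rose (limma). With quantile normalization the 104 genes gave 6 calls lower and 2 higher and a median of -0.10. With cyclic loess the calls were 7 and 2, and without UCP1 array 3 there were 0 calls. Over the other fits that left out 1 array, 5 to 23 fell.

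In the list of supply, export and turnover 6 of 25 genes fell and 0 rose (1 higher at an unadjusted p under 0.05), with a median of -0.40. Chac1, which cleaves glutathione inside the cell, fell by 1.18 on the log2 scale, Slc3a2, the heavy chain of the cystine importer, fell by 1.15 and the glutamine carrier Slc1a5 fell by 1.09. Slc25a39, which carries glutathione into mitochondria, fell by 0.85, the export pump Abcc1 fell by 0.80 and the neutral amino acid carrier Slc1a4 fell by 0.71. Chac1 and Slc1a4 also passed after quantile normalization (limma, adjusted p = 0.0196 and 0.0230), and Abcc1, Slc25a39, Slc3a2 and Slc1a5 did not (adjusted p = 0.0723, 0.0819, 0.0938 and 0.0755). Slc7a11, the partner that makes Slc3a2 a cystine importer, was at -0.40 without passing (adjusted p = 0.151). In the list of other proteins linked to glutathione 1 of 16 genes fell and 0 rose (limma), with a median of -0.29 and no call after quantile normalization. The gene that fell was the prostaglandin synthase Ptges2, by 0.68, while Ptges was at -0.34 without passing (adjusted p = 0.285). The list also holds genes such as Vars, Eef1g and Clic4, and whether each product uses glutathione was not tested.

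Outside the glutathione system, 3 of 20 genes of peroxide and superoxide handling fell and 0 rose (1 higher at an unadjusted p under 0.05), with a median of -0.20. They were Txnrd2 and Txn2, the mitochondrial thioredoxin reductase and its thioredoxin, which fell by 0.75 and 0.74, and Srxn1, which restores over-oxidised peroxiredoxins and fell by 0.56. Like Sod2, Txnrd2 and Txn2 encode mitochondrial proteins. Glrx2, Gpx1 and Gstk1, whose products are also found in mitochondria at least in part, were at 0.00, 0.05 and -0.22, and none of them passed. After quantile normalization the list had 2 genes lower and 2 higher, with 5 higher at an unadjusted p under 0.05 and a median of -0.04. The 2 higher were Prdx4, a peroxiredoxin of the endoplasmic reticulum, at 0.43, and the sestrin Sesn3, at 0.47 (limma, adjusted p = 0.0266 and 0.0364), against 0.28 and 0.24 in the deposited scaling, where neither passed. Txnrd2 and Srxn1 still passed (adjusted p = 0.0060 and 0.0463) and Txn2 did not (0.0981). In the NRF2 list 5 of 31 fell and 0 rose, also with 0 higher at an unadjusted p under 0.05, and the median was -0.25. The carbonyl reductases Cbr1 and Cbr3 fell by 0.81 and 0.72, and Osgin1, a growth inhibitor induced by oxidants, fell by 0.70, with Abcc1 and Srxn1 as above. After quantile normalization 2 of the 5, Cbr1 and Srxn1, passed, 3 genes were higher at an unadjusted p under 0.05 and the median was -0.05. Cbr3, Osgin1 and Abcc1 then did not pass (limma, adjusted p = 0.0502, 0.0755 and 0.0723), and after cyclic loess Cbr3 did (0.0475) with the same median of -0.05. In NADPH supply 2 of 13 fell and 0 rose (0 higher at an unadjusted p under 0.05, 7 lower): Aldh1l2, a mitochondrial folate enzyme, by 1.03, and Pgls of the pentose phosphate pathway, by 0.49. After quantile normalization Aldh1l2 passed and Pgls did not (limma, adjusted p = 0.0203 and 0.0776). None of 8 genes of selenoprotein synthesis passed (limma, 3 lower at an unadjusted p under 0.05), with the smallest p for Sephs2, which activates selenium, at -0.44, and for Eefsec, the selenocysteine elongation factor, at -1.17 from a dim probe.

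**Figure D5:**
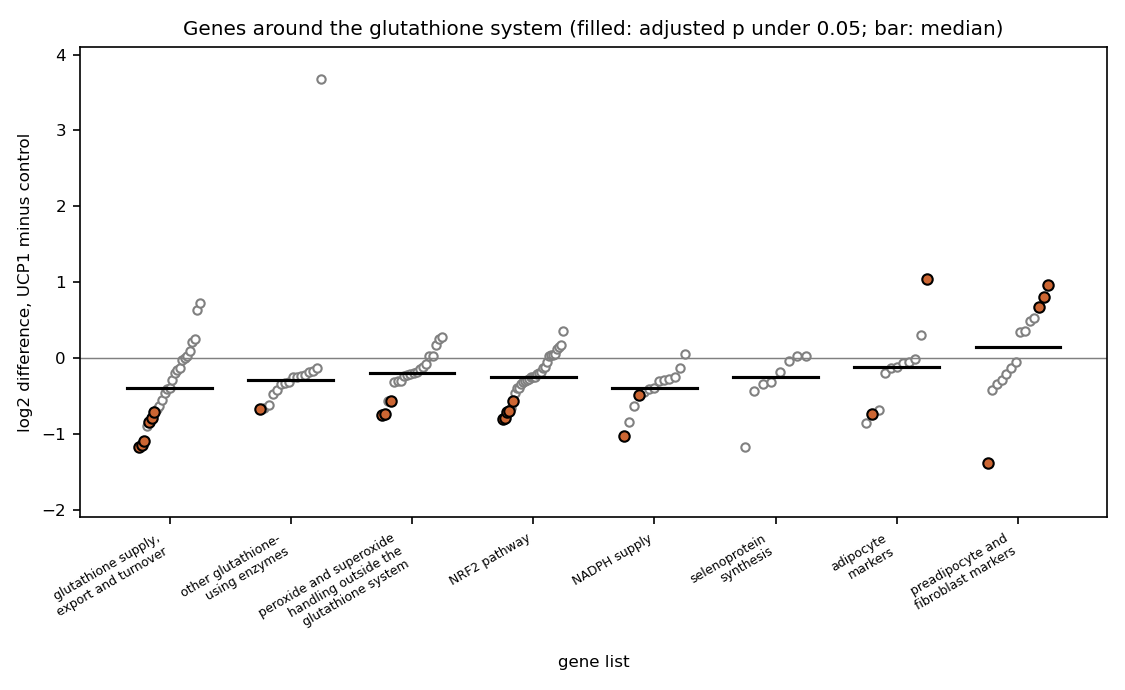
Log2 difference (vertical axis) of each gene in 6 pathway lists and 2 marker lists, with filled points for an adjusted p under 0.05 and bars for list medians. Filled points in the 6 pathway lists all lie below 0, whereas 3 of the 4 filled preadipocyte and fibroblast markers lie above it, and the single open point near 3.7 is the dim Alox5ap, which had a reading below 0 on 1 array.

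Some markers of preadipocytes, fibroblasts and macrophages were higher on the UCP1 arrays and others were lower. Of 14 measured preadipocyte and fibroblast markers 7 lay above 0 and 7 below. Of these 14, 3 rose and 1 fell (limma), with a median of 0.14. After quantile normalization and after cyclic loess 6 passed higher and 1 lower, with medians of 0.41 and 0.39. Pdgfra, a receptor of fat progenitors, read 58.6, 54.3 and 49.5 on control arrays and 108, 76.9 and 76.1 on UCP1 arrays, and Thy1, a fibroblast surface protein, rose by 0.80 on the log2 scale. Lox, a collagen cross-linking enzyme, rose by 0.97 and Acta2, smooth muscle actin, fell by 1.39, while Dlk1, the preadipocyte factor, was at 0.34 without passing. Summed over the 14 markers, intensity was 1278 to 1518 on control arrays and 1223 to 1562 on UCP1 arrays, and no marker read 0. Of 8 macrophage markers 4 lay above 0 and 4 below, and 1 rose, the lysozyme gene Lyz2, by 1.48. The summed intensity of the 8 was 12.0 to 17.8 on control and 15.0 to 15.6 on UCP1 arrays. Of the 11 adipocyte markers 1 rose (Lep) and 1 fell (Slc2a4), Fabp4 was at -0.07 and Adipoq at -0.12, and the sum was 3431 to 3941 on control and 2824 to 3895 on UCP1 arrays. The part of cell makeup in the values of Gpx8, Gstm7 and Sod2 was not tested, and in RNA from whole cultures fewer cells of a type and less RNA per cell cannot be told apart.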

How the data were processed

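The authors deposited linear spot intensities, whose array medians were 1.04 to 1.05. How they corrected background and scaled the arrays, and which scanner software they used, was not found in the labels. The code -9999 was treated as missing, and readings of 0 or less took that array's lowest positive reading before log2. With medians this close, a change in RNA per cell would not show. The number of arrays, 3 a group, limits the precision. Groups came from the source field of the labels, since the closing digit of the UCP1 titles is ambiguous.

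Probes with values on at least 2 arrays per group, 36116 in all, were fitted with limma 3.58.1 in R 4.3.3 (lmFit, eBayes with an intensity trend, two-sided, Benjamini-Hochberg over all tested probes, threshold 0.05). The functions were tested on simulated arrays. The members and lists were chosen with earlier results of these data known, and so were the alternatives: scaling, offset, filters, variance models, replicate block and single arrays left out. All 38 member symbols matched RefSeq by gene ID. Of 182 list entries 161 were measured. Named genes were every member, with array values for those that passed, those at least 0.5 in size without overlap and 11 preset ones; in the lists, up to 6 genes that passed, or the 2 with the smallest p. Gpx5, Gpx7, Gstt3, Ccs, Slc7a11, Prdx4, Sesn3 and Alox5ap were given more detail or named after their values were seen. Lipe, Ptges, Vars, Eef1g and Clic4 were also named outside these rules. Promoter letters are from RefSeq (GRCm38.p6); no build is named in the labels of the arrays.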

Additional observations from a re-analysis of the deposited data

How the results depend on the processing

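Calls in this series depend on the variance model and on single arrays. With limma without the intensity trend 0 probes passed higher and 0 lower, 0 members passed (11 at an unadjusted p under 0.05) and 0 list genes, and Ucp1 at 3.00 did not pass (adjusted p = 0.0855). With an ordinary test per probe 1 and 2 probes passed, 0 members, 0 list genes, and Ucp1 at 3.00 did not pass. The deposited scaling gave 289 probes higher and 732 lower. Quantile normalization gave 567 and 446, with 4 members higher and 0 lower and 10 list genes higher and 8 lower. Cyclic loess gave 517 and 460, with 0 members lower and 10 and 9 list genes. The brighter probes alone gave 523 and 1716 with 4 members lower, and array weights 491 and 1715 with 4 members lower. Members lower numbered 3 with the offset of 0.129 and 2 with robust eBayes. Leaving out 1 array gave 66 to 395 probes higher and 93 to 1610 lower, 0 to 2 members higher and 0 to 4 lower, 2 to 5 list genes higher and 1 to 28 lower. Median centring and probes with values on all arrays called the same 3 members.

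Some members that never passed changed sign. With quantile normalization these were Mgst3 (0.23), Gpx4 (0.0032), Mgst1 (0.067), Gsto1 (0.041) and Gclm (0.010), and with cyclic loess Mgst3 (0.19), Mgst1 (0.020) and Gsto1 (0.035). With array weights Glrx2 was at -0.048 and Gstm4 at -0.040. The mean over probes put Mgst3 at 0.38, and the lowest probe put Sod1 at 0.13 and Mgst3 at 0.82. With 1 array left out the ranges crossing 0 were -0.12 to 0.018 for Mgst3, -0.19 to 0.42 for Gstp3, -0.41 to 0.058 for Gsr, -0.12 to 0.065 for Glrx2, -0.056 to 0.14 for Gstm4, -0.076 to 0.14 for Gpx1 and -0.43 to 0.14 for Nqo1. The cause was not tested.

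With the replicate number as a block (replicate block) 776 probes passed and 1 member was higher, since Gstm7 did not pass. Same-numbered arrays had deviations from their group means correlated at -0.24, -0.01 and 0.10, and differently numbered arrays at -0.36 to 0.35. With 3 arrays a group, whose deviations sum to 0, these values cannot tell whether same-numbered arrays were handled together. The UCP1 numbers came from accession order.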
